A study of Rattus norvegicus with 24 samples.

Results

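Acta2, Tagln, Myh11, and Cnn1, which are 4 genes of the contractile apparatus of vascular smooth muscle, were followed over 24 arrays of rat heart RNA. A probe set, the group of short oligonucleotides that reads 1 transcript, was taken where the annotation of the array tied it to 1 of these genes and to no other. That gave 4 probe sets, 1 per gene, among 15866 tested: 1370857_at for Acta2, 1367570_at for Tagln, 1370896_a_at for Myh11, and 1367785_at for Cnn1. A further 3 probe sets carry the symbol of Acta2 together with that of the cardiac actin gene Actc1 and were described apart.

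Smooth muscle cells form the wall of the coronary arteries and arterioles and set their width by contracting. Acta2 encodes smooth muscle α-actin, the thin filament on which smooth muscle myosin, the product of Myh11, pulls, and Tagln and Cnn1 encode transgelin and calponin, which bind actin. These genes are driven together by serum response factor and its partner myocardin, which act through CArG boxes, and they are lowered together when smooth muscle cells leave the contractile state after vascular injury. In a piece of heart they mark the vessel wall among far more abundant heart muscle.

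The RNA came from the left ventricle with the septum of male Wistar Kyoto rats, 12 to 14 weeks old at the start, each hybridized to its own array, in 6 groups of 4 rats. All groups, saline included, received fluid into the trachea once per week. Saline rats received the vehicle, and MSH rats ash of Mount St. Helens without water-soluble zinc. PM-HD rats received oil combustion particles in whole suspension (high dose), with 14.5 μg of zinc and 3.0 μg of nickel per mg. PM-LD rats received the low dose of the same particles, labeled as 7.25 μg of zinc and 1.5 μg of nickel per mg. By the study design that dose is a smaller mass of the particles, and the label per mg was not reconciled with it. PM-L rats received the leachate of the high dose, with soluble zinc and nickel and without the solids. By the study design, PM-HD and zinc sulfate rats received 66.8 μg of soluble zinc per kg each week, the latter as the dissolved salt. The labels give the zinc sulfate solution as 14.5 μg per mL, and the 2 values were not reconciled. The saline, MSH, PM-HD, and zinc sulfate arrays are of rats exposed for 8 weeks and killed 48 hr after the last instillation. For PM-LD and PM-L, neither the labels nor the methods give the number of weeks. No gene was deleted or added in any group.

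Signals are linear intensities, scaled by the authors to 1 common mean per array. The mean log2 value of 11 ventricular heart muscle genes lay between 14.15 and 14.64 on every array of the labeled tissue, whereas that of 4 atrial transcripts ranged from 7.81 to 13.15. The 3′/5′ signal ratio of the Gapdh control probe sets, which rises when RNA is degraded, ranged from 1.11 to 5.62 and exceeded 3 on 9 of the 24 arrays: 1 each of saline, PM-LD, and zinc sulfate and 2 each of MSH, PM-HD, and PM-L. The paper reports ribosomal RNA ratios at or above its limit for all samples before hybridization. In whole tissue, fewer smooth muscle cells and less RNA per cell cannot be told apart.

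The sequence upstream of the transcription start was available for 2 of the 4 genes, Acta2 and Cnn1, from RefSeq on build GRCr8, and is shown because serum response factor acts there on this gene family. The 250 bases are written 5′ to 3′ on the strand of the gene, at chr1:241172504-241172753 on the minus strand for Acta2 and chr8:28908187-28908436 on the plus strand for Cnn1. Both strands were searched for the CArG box, whose inner bases are all A or T, for the same box with 1 inner base that is neither, and for GGAATG, the element of the TEAD factors. Capitals mark the matches.
Acta2: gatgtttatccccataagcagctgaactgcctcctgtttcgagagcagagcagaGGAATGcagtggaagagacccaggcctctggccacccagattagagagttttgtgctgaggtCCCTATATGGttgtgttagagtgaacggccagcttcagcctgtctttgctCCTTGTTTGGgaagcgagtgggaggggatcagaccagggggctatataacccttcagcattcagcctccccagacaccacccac
Cnn1: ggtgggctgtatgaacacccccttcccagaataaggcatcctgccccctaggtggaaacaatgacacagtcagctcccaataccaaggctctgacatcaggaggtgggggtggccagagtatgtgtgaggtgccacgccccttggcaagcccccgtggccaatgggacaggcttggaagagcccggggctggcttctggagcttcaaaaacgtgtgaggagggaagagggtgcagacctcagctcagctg
Acta2 held 2 CArG-like boxes, CCCTATATGG from base −134 and CCTTGTTTGG from base −84, and GGAATG from base −196, counted from the transcription start. No match of the 3 motifs lay in the Cnn1 window, and neither window held a strict CArG box. Of 33469 promoter windows of the same length, 1.5% held the strict box, 6.84% the CArG-like box, and 12.1% the GGAATG element.

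Acta2 had its highest mean signal in MSH hearts and its lowest in PM-HD hearts. The 4 saline rats, replicates 1 to 4, had signals of 1384.4, 1379.4, 1029.8, and 1535.1 (mean 1332 ± 214, SD). The MSH rats had 1969.3, 1528.1, 1472.7, and 1294.7 (1566 ± 287). The zinc sulfate rats had 1014.7, 1009.5, 1350.6, and 970.8 (1086 ± 177). In zinc sulfate, 3 of 4 rats lay below every saline rat and below every MSH rat, and replicate 3 lay within the range of both. The PM-HD rats had 764.2, 642.0, 1109.6, and 1507.9 (1006 ± 389). The PM-LD rats had 1098.0, 777.3, 1101.4, and 1204.5 (1045 ± 185). The PM-L rats had 767.3, 759.2, 1454.9, and 1137.4 (1029.7 ± 334). PM-HD and PM-L each held 2 rats below every saline rat and 2 within the saline range, so that both groups overlapped saline. PM-LD replicate 2 also lay below every saline rat.

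The comparisons with saline asked whether any exposure changed the vessel wall genes, and that of zinc sulfate with MSH whether a zinc exposure differed from particles without zinc. A gene was called at the study thresholds, an unadjusted p under 0.05 from limma and a fold more than 25% up or down. Fold changes are differences of mean normalized log2(signal + 16). Acta2 was called in 1 of 6 comparisons, lower in zinc sulfate than in MSH hearts by −0.53 (standard error 0.24, 95% interval −1.05 to −0.01), a fold of 0.693. The unadjusted p from limma was 0.0456 and the adjusted p 0.675, and the two-sided exact permutation p was 0.0571, where 0.0286 is the smallest that 4 against 4 can give. It was the only called gene of the 4 in that comparison, in which 6.66% of all probe sets passed and 2.99% passed as lower.

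The call of Acta2 between zinc sulfate and MSH rested on single arrays and on the processing. It was lost without MSH replicate 1 (−0.41), replicate 2 (−0.53), or replicate 3 (−0.56) and without zinc sulfate replicate 1 (−0.50), replicate 2 (−0.50), or replicate 4 (−0.48). It was kept without MSH replicate 4 (−0.62) and without zinc sulfate replicate 3 (−0.64). It was also lost with a pseudocount of 1 (−0.54), with median centering in place of quantile normalization (−0.36), with the Gapdh ratio (−0.41) or the mean of atrial transcripts (−0.54) as a covariate, and with the replicate number as a block (−0.53). The sign was the same in each case.

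None of the 4 genes was called in a comparison with saline, and none had an unadjusted limma p or an exact permutation p under 0.05. The share of all probe sets that passed was 3.57% for MSH, 3.67% for PM-HD, 4.11% for PM-LD, 4.25% for PM-L, and 4.46% for zinc sulfate. The log2 fold change of Acta2 against saline was 0.25 in MSH (95% interval −0.27 to 0.77), −0.46 in PM-HD (−0.98 to 0.06), −0.35 in PM-LD (−0.88 to 0.17), −0.38 in PM-L (−0.90 to 0.15), and −0.28 in zinc sulfate (−0.80 to 0.24). The 4 exposures with zinc thus had values below 0 and MSH a value above 0, with every interval reaching across 0. These comparisons share the saline arrays. In PM-HD, Acta2 would have been called without PM-HD replicate 4 (−0.68), without saline replicate 3 (−0.58), or with median centering (−0.48), and in PM-L without PM-L replicate 3 (−0.58) or with median centering (−0.44).

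Tagln, whose product transgelin cross-links actin, had group means between 278 and 424. Saline rats had signals of 253.7, 574.6, 259.3, and 346.8 (359 ± 150), and MSH rats 545.5, 455.4, 334.2, and 361.6 (424 ± 96.1). PM-HD rats had 166.1, 180.6, 336.7, and 538.3 (305 ± 173), and PM-LD rats 292.0, 202.6, 344.5, and 271.1 (278 ± 58.7). PM-L rats had 213.6, 190.6, 469.7, and 425.1 (325 ± 143), and zinc sulfate rats 328.7, 198.2, 564.0, and 383.5 (369 ± 152). Replicates 1 and 2 of PM-HD and of PM-L were below every saline rat, the same rats as for Acta2. The other 2 rats of each group lay within the saline range. PM-LD replicate 2 and zinc sulfate replicate 2 were also below every saline rat. The log2 fold changes against saline were 0.26 in MSH (95% interval −0.48 to 1.00), −0.29 in PM-HD (−1.03 to 0.45), −0.24 in PM-LD (−0.92 to 0.44), −0.15 in PM-L (−0.84 to 0.53), and 0.12 in zinc sulfate (−0.62 to 0.86), and −0.14 between zinc sulfate and MSH (−0.88 to 0.60).

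Myh11, the myosin heavy chain found in differentiated smooth muscle, had group means between 1029 and 1297. Saline rats had signals of 846.8, 1174.7, 1049.8, and 1936.6 (1252 ± 476), and MSH rats 1530.0, 1465.2, 1085.1, and 1108.0 (1297 ± 233). PM-HD rats had 1000.4, 893.0, 1315.8, and 1729.2 (1235 ± 375), and PM-LD rats 1034.7, 754.8, 1276.9, and 1050.4 (1029 ± 214). PM-L rats had 1072.6, 751.2, 1851.3, and 1445.9 (1280.2 ± 475), and zinc sulfate rats 1080.1, 836.6, 1552.3, and 851.0 (1080.0 ± 334). Saline replicate 4 had the highest signal and PM-L replicate 2 the lowest, and the range of every group overlapped that of saline. The log2 fold change in PM-HD was 0.01 (95% interval −0.61 to 0.63), so that a change of more than 0.63 in either direction was outside the interval. The other values against saline were 0.11 for MSH, −0.24 for PM-LD, 0.06 for PM-L, and −0.17 for zinc sulfate, and −0.28 between zinc sulfate and MSH (standard errors 0.29 to 0.31).

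Cnn1, whose product calponin restrains the myosin motor on actin, was dim and variable, and 3 of its 24 signals lay under 16. Saline rats had signals of 85.7, 132.4, 107.3, and 114.3 (109.9 ± 19.3), and MSH rats 154.4, 92.4, 91.0, and 70.8 (102 ± 36.2). PM-HD rats had 16.4, 13, 161.2, and 79.0 (67.4 ± 69.5), and PM-LD rats 15.7, 46.5, 111.9, and 67.4 (60.4 ± 40.4). PM-L rats had 92.1, 103.0, 27.2, and 67.0 (72.3 ± 33.6), and zinc sulfate rats 125.4, 74.3, 80.4, and 11 (72.8 ± 47.1). In PM-HD, PM-LD, and zinc sulfate, 3 of 4 rats lay below every saline rat, and the signals under 16 belonged to 1 rat of each of these groups. In PM-HD the fourth rat, replicate 3, lay above every saline rat.

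The log2 fold change of Cnn1 against saline was −0.99 in PM-HD (95% interval −2.09 to 0.11, unadjusted limma p = 0.0751), −0.84 in PM-LD (−1.96 to 0.27, exact permutation p = 0.0571), −0.66 in PM-L (−1.78 to 0.46), −0.63 in zinc sulfate (−1.73 to 0.48), and −0.20 in MSH (−1.30 to 0.91). Between zinc sulfate and MSH it was −0.43 (−1.54 to 0.67). Without PM-HD replicate 3, Cnn1 was called lower in PM-HD by −1.45. Its sizes depended on the pseudocount, with −1.36 in PM-HD and −1.09 in PM-LD at a pseudocount of 1 and −0.56 and −0.52 at 64. They also depended on single arrays of low signal: the value moved to −0.14 in zinc sulfate and to 0.05 between zinc sulfate and MSH without zinc sulfate replicate 4, to −0.46 in PM-LD without PM-LD replicate 1, and to −0.27 in PM-L without PM-L replicate 3. In MSH it was −0.08 when saline replicate 2 was left out, −0.07 without MSH replicate 4, and −0.35 without MSH replicate 1, and in zinc sulfate −0.95 without zinc sulfate replicate 1. Between zinc sulfate and MSH it was −0.75 without zinc sulfate replicate 1 and −0.28 without MSH replicate 1.

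**Figure D1:**
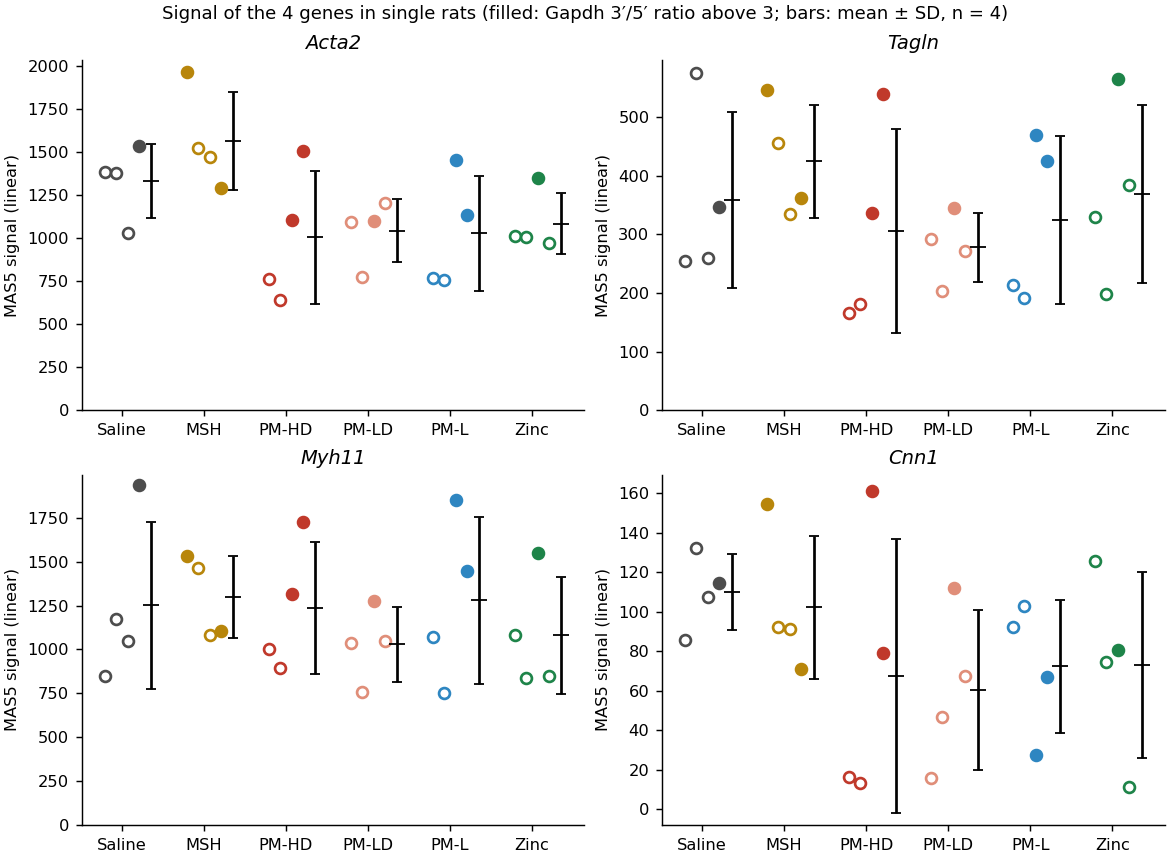
Linear signal of Acta2, Tagln, Myh11, and Cnn1 in each of 24 rats, by exposure group (replicates 1 to 4 from left to right), with the mean ± SD of 4 rats beside the points. Filled points are arrays with a Gapdh 3′/5′ ratio above 3. In PM-HD and PM-L the 2 open points of Acta2 and of Tagln lie below the 2 filled points, and 4 of the Cnn1 points in zinc-exposed groups lie under 17.

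**Figure D2:**
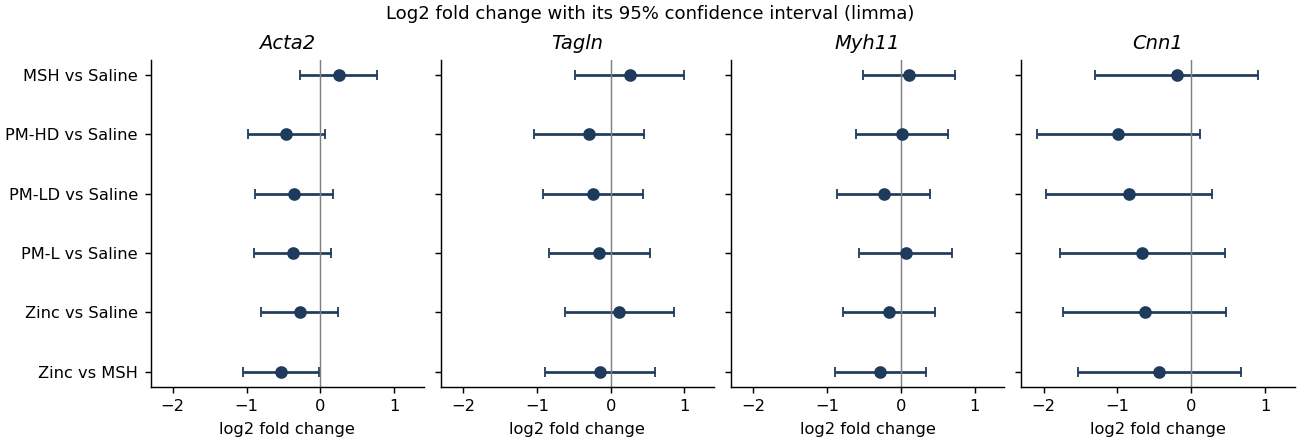
Log2 fold change (x axis, first group minus second) of the 4 genes in 6 comparisons (y axis), with 95% confidence intervals from limma. All intervals include 0 except that of Acta2 between zinc sulfate and MSH, which ends at −0.01.

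Ordered by mean log2 value, Acta2 ran from MSH over saline, zinc sulfate, PM-LD, and PM-L to PM-HD. Its widest step between neighbors, from saline to zinc sulfate, was 1.16 pooled SD (exact permutation p = 0.143). Tagln ran from MSH over zinc sulfate, saline, PM-L, and PM-LD to PM-HD, Cnn1 from saline over MSH, zinc sulfate, PM-L, and PM-LD to PM-HD, and Myh11 from MSH over PM-L, PM-HD, saline, and zinc sulfate to PM-LD. MSH was first for 3 genes and PM-HD last for 3. The exact permutation p between neighbors was 0.143 or above in each of the 4 orders. The moderated F test over all 6 groups gave an adjusted limma p of 1.00 for each gene, and unadjusted p of 0.0811 for Acta2, 0.517 for Tagln, 0.847 for Myh11, and 0.440 for Cnn1; 5.01% of all probe sets had an unadjusted p under 0.05 in that test and 0 an adjusted p under 0.05.

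The 4 probe sets differed in how steady they were. The SD of log2 values within groups was 0.36 for Acta2, 0.48 for Tagln, 0.45 for Myh11, and 0.81 for Cnn1, against a median of 0.39 over all probe sets. Cnn1 was more variable than 95.3% of probe sets and its highest signal was 14.7 times its lowest, whereas the corresponding ratios were 3.07 for Acta2, 3.46 for Tagln, and 2.58 for Myh11. Cnn1 was also the dim member by rank: 23.5% of probe sets had a lower mean log2 value, compared with 87.9% for Acta2, 59.0% for Tagln, and 88.1% for Myh11.

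Acta2, Tagln, and Myh11 varied together from rat to rat, and no pair with Cnn1 passed the test. Over the 24 arrays, Pearson r was 0.779 for Acta2 and Tagln (adjusted permutation p = 6e-05 over 6 pairs), 0.716 for Acta2 and Myh11 (adjusted p = 0.00036), and 0.640 for Tagln and Myh11 (adjusted p = 0.00148). The raw p of Acta2 and Tagln, 1e-05, is the smallest that 100000 permutations can give. Spearman rho was 0.742, 0.764, and 0.706, respectively. For Cnn1, r was 0.344 with Acta2 (adjusted permutation p = 0.146), 0.231 with Tagln (adjusted p = 0.329), and 0.126 with Myh11 (adjusted p = 0.559). The pair of Acta2 and Cnn1 passed the threshold only without PM-L replicate 3 (r = 0.458), the rat with high Acta2 and a Cnn1 signal of 27.2.

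The co-variation was also present among rats of the same group. After the mean of each group was subtracted, r was 0.785 for Acta2 and Tagln, 0.841 for Acta2 and Myh11, and 0.70 for Tagln and Myh11. Without the 2 arrays farthest from the median of the first gene, r was 0.724, 0.702, and 0.713. Leaving out each array in turn kept r within 0.752 to 0.817, 0.687 to 0.775, and 0.607 to 0.710, respectively. MSH replicates 1 and 2 and PM-HD replicate 4 were among the 6 highest rats for all 3 genes, and replicate 2 of PM-HD, PM-LD, and PM-L among the 6 lowest for all 3.

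**Figure D3:**
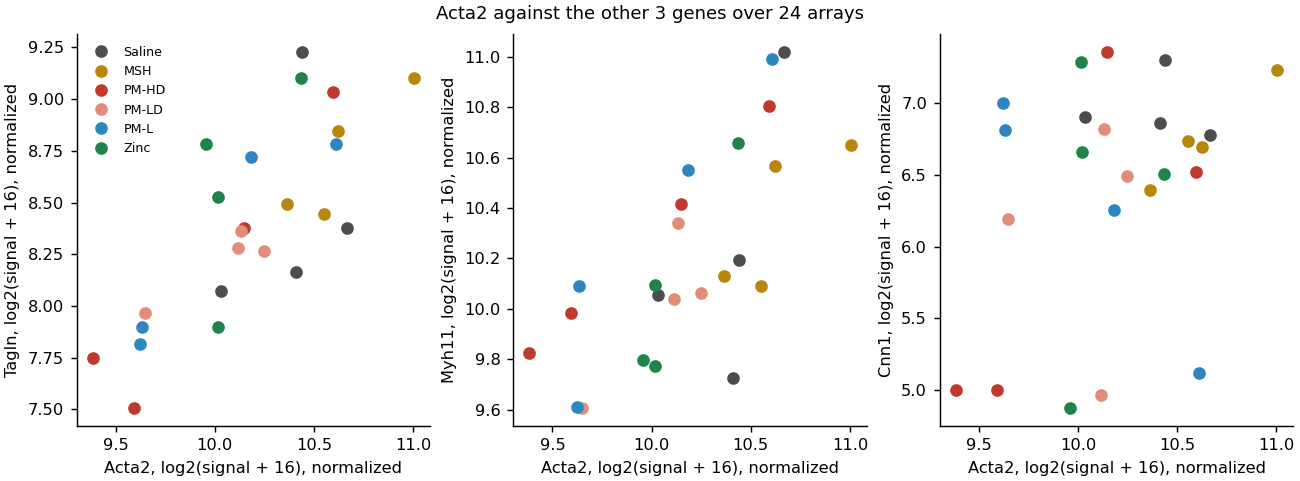
Normalized log2(signal + 16) of Acta2 (x axis) against Tagln, Myh11, and Cnn1 (y axes) on 24 arrays, colored by group. Tagln (r = 0.779) and Myh11 (r = 0.716) climb with Acta2, whereas 5 arrays lie apart at the bottom of the Cnn1 panel (r = 0.344).

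How close these pairs were in the setting of the whole array differed by gene. Among 15865 other probe sets, Acta2 ranked 2 and Myh11 ranked 19 by r with Tagln, and Tagln ranked 3 and Myh11 ranked 16 by r with Acta2. By r with Myh11, Acta2 ranked only 797 and Tagln 1325. Many probe sets followed Myh11: 15.2% had an r above 0.5 with it, compared with 6.18% for Acta2, 2.70% for Tagln, and 0.429% for Cnn1.

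Myh11 also followed the Gapdh ratio of the array. Its r with the log2 ratio was 0.885 (adjusted permutation p = 0.0002 over 40 relations), and 2.11% of all probe sets had a higher value. For Acta2 r was 0.574 (adjusted permutation p = 0.0207), for Tagln 0.486 (adjusted p = 0.0527), and for Cnn1 0.021. Among the 6 arrays with the highest Myh11 signal 5 had a ratio above 3, and among the 6 lowest 0 had. The level of Myh11 and the state of the RNA, as far as this ratio reads it, cannot be told apart on these arrays.

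**Figure D4:**
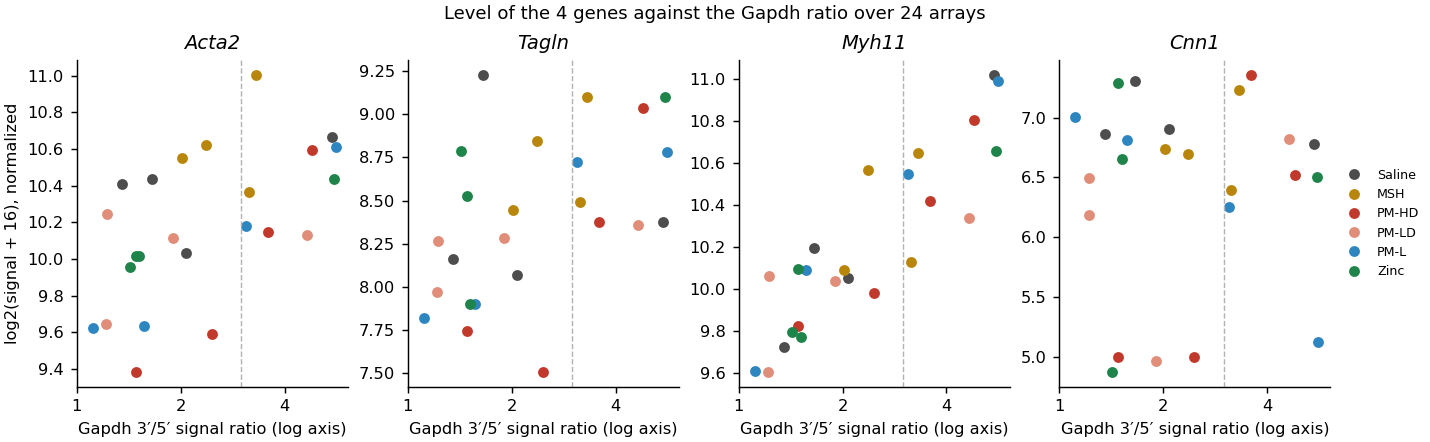
Normalized log2(signal + 16) of the 4 genes (y axes) against the Gapdh 3′/5′ ratio (x axis, log scale) on 24 arrays, colored by group, with a dashed line at a ratio of 3. Myh11 rises along the whole axis (r = 0.885), Acta2 and Tagln less closely (0.574 and 0.486), and Cnn1 shows no slope (0.021).

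The pairs were weaker but positive with the Gapdh ratio taken out. With group means and the log2 ratio removed, r was 0.672 for Acta2 and Tagln, 0.643 for Acta2 and Myh11, and 0.555 for Tagln and Myh11. On the 15 arrays with a ratio of 3 or below it was 0.737 (adjusted permutation p = 0.0113), 0.577 (adjusted p = 0.0681), and 0.547 (adjusted p = 0.0681). On the 9 arrays above 3, an alternative chosen after seeing the data, it was 0.578, 0.584, and 0.335, with no exact permutation p under 0.05 (lowest 0.0984).

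Acta2 separated the groups more on the arrays with a low Gapdh ratio. On these arrays its signals were 1029.8 to 1384.4 in 3 saline rats and 1472.7 to 1528.1 in 2 MSH rats, compared with 642.0 and 764.2 in PM-HD, 759.2 and 767.3 in PM-L, 970.8 to 1014.7 in 3 zinc sulfate rats, and 777.3 to 1204.5 in 3 PM-LD rats. All of these PM-HD, PM-L, and zinc sulfate rats lay below all saline and MSH rats here. With only 2 or 3 rats per group such a separation arises easily, and its share over all probe sets was not counted. In limma fits without the arrays above 3, the log2 fold change of Acta2 relative to saline was −0.81 in PM-HD (unadjusted p = 0.000959, adjusted p = 0.623), −0.67 in PM-L (unadjusted p = 0.00454, adjusted p = 0.789), −0.30 in zinc sulfate (unadjusted p = 0.0740), −0.29 in PM-LD (unadjusted p = 0.114), and 0.29 in MSH (unadjusted p = 0.107). Only the values of PM-HD and PM-L passed the study thresholds, on 2 arrays each, and so did the difference of zinc sulfate from MSH (−0.59). Of all probe sets, 4.49% were called there in PM-HD, 4.89% in PM-L, and 13.2% between zinc sulfate and MSH. Cnn1 also passed in PM-HD, with signals of 16.4 and 13 on the 2 remaining arrays and a log2 fold change of −2.02. With the log2 ratio as a covariate on all arrays, Acta2 was called in PM-HD at −0.56 and not in PM-L at −0.40. The share of all probe sets called with this covariate in PM-HD was 4.97%. The part of RNA degradation in the group differences was not tested.

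Other genes of the smooth muscle contractile apparatus were described from a list of 29, of which 24 had a probe set of their own. Their median r was 0.453 with Acta2, 0.473 with Tagln, 0.458 with Myh11, and 0.105 with Cnn1, compared with 0.028, 0.017, 0.044, and 0.00 over all probe sets. An r above 0.5 was found for 11 genes with Acta2, 10 with Tagln, 11 with Myh11, and 0 with Cnn1. Among all probe sets with a mean above the median, the share was 10.6%, 4.35%, 25.7%, and 0.252%, respectively. With group means and the log2 Gapdh ratio removed, the medians fell to 0.128 for Acta2, 0.175 for Tagln, and 0.003 for Myh11. That of Cnn1 rose to 0.155.

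Tpm2, which encodes the β-tropomyosin that lies along the actin filament, had the highest r with Tagln of all 15865 probe sets (0.780), and an r of 0.711 with Acta2 and 0.781 with Myh11. With the ratio and group means removed, r of Tpm2 was 0.736 with Tagln, 0.562 with Acta2, and 0.364 with Myh11. Ppp1r14a, which encodes the inhibitor of myosin phosphatase CPI-17, had an r of 0.698 with Tagln, rank 4, and of 0.544 after the removal. Lmod1, a gene for the actin nucleator leiomodin, had 0.625 and 0.736, and Actg2, the gene of smooth muscle γ-actin, 0.515 and 0.699. These 4 genes kept a value above 0.5 with Tagln after the removal, as did Smtn, the gene of smoothelin, whose r rose from 0.086 to 0.578.

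Genes with a high r with Myh11 lost most of it when the ratio and group means were removed. Flna, the gene of filamin A, had an r of 0.896 with Myh11 and of 0.291 after the removal. Mylk, the gene of myosin light chain kinase, went from 0.796 to −0.14 and Csrp1, which encodes a cysteine-rich LIM protein of smooth muscle, from 0.797 to 0.050. Des, the gene of desmin, which heart muscle also makes in quantity, had the lowest r with Myh11 among the 24 listed genes (−0.87), and Synpo2 (−0.69) and Pdlim7 (−0.66) were also negative. After the removal their r with Myh11 was −0.028 for Des, 0.525 for Synpo2, and 0.186 for Pdlim7.

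**Figure D5:**
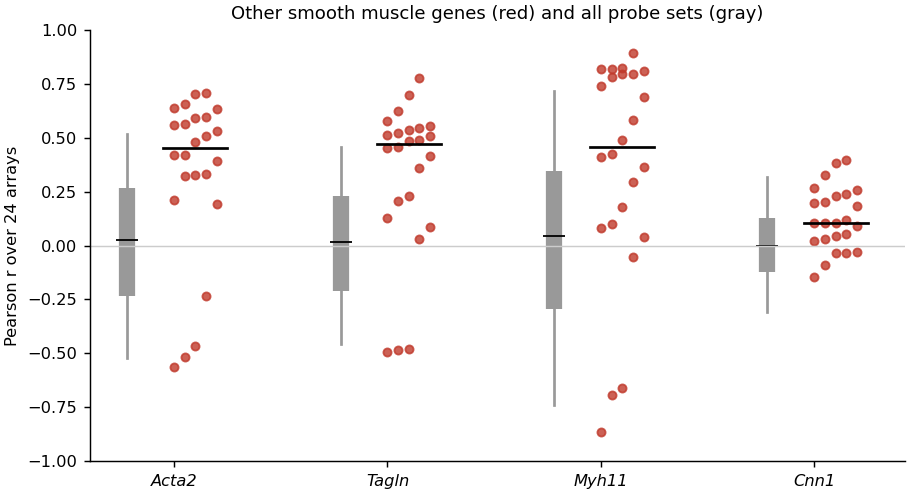
Pearson r over 24 arrays (y axis) of 24 other smooth muscle contractile genes (red points, black line at their median) with each of the 4 genes (x axis). Gray bars show all other probe sets (thin line, 5th to 95th percentile; thick, quartiles; tick, median). Most red points of Acta2, Tagln, and Myh11 lie above the gray median and those of Cnn1 close to it.

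By the rule of the 5 bright single-gene probe sets with the highest r, Acta2 was most like Suds3 (0.786), Surf2 (0.773), Trim47 (0.762), Kif2a (0.732), and Kbtbd2 (0.728). Tagln was most like Tpm2 (0.780), Pgap2 (0.685), Igfbp4 (0.663), Zfp395 (0.658), and Jup (0.658). Myh11 was most like Tubb5 (0.918), Sorbs3 (0.910), Itga3 (0.907), Flna (0.896), and Gnai2 (0.888), each of which had an r of at least 0.893 with the Gapdh ratio itself. Cnn1 was most like Vps37b (0.619), Ier5 (0.605), Rce1 (0.568), Tnrc6a (0.553), and Zfp395 (0.552). Of these 20 entries 2, Tpm2 and Flna, were in the smooth muscle list.

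In the group comparisons, the list of 24 contractile genes had 0 genes called in MSH, PM-HD, and PM-LD against saline. Of all probe sets, 3.57%, 3.67%, and 4.11% were called there. Itga8, the integrin of smooth muscle and pericytes, was called lower in PM-L (−1.08, standard error 0.36) and in zinc sulfate (−0.65, standard error 0.28). No other gene of the list was called against saline, where 4.25% of all probe sets were called in PM-L and 4.46% in zinc sulfate. The adjusted limma p of Itga8 was 0.872 in PM-L and 0.999 in zinc sulfate. Its mean signal was 48.6 ± 38.4 in PM-L, 59.9 ± 39.1 in zinc sulfate, and 99.7 ± 19.2 in saline. It lost its call in PM-L without PM-L replicate 4, and in zinc sulfate without saline replicates 2 or 3 or zinc sulfate replicates 2 or 4, with a pseudocount of 64, with an intensity trend and robust prior, with all 24 arrays in 1 fit, and with only the 2 groups compared. Between zinc sulfate and MSH, Cald1, the gene of the actin-binding caldesmon, was called lower by −0.61 and Smtn higher by 0.34. Of all probe sets, 6.66% were called in that comparison. In it, 20 of 24 genes had values below 0 (median −0.22 against −0.01 over all probe sets).

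The number of genes called between zinc sulfate and MSH changed with single rats. Without zinc sulfate replicate 3, 10 of the 24 genes were called lower than in MSH and 2 higher, with a median of −0.44, when 14.5% of all probe sets were called and 7.32% as lower. The 10 were Actn1, Cald1, Cnn3, Csrp1, Flna, Itga8, Myl9, Mylk, Tagln2, and Zyx, which encode actin-binding, myosin, and adhesion proteins. Without the arrays of a Gapdh ratio above 3, 8 were called lower and 2 higher, at 13.2% of all probe sets called. Without MSH replicate 4, 0 were called. Cald1 lost its call there, without zinc sulfate replicates 1, 2, or 4, with median centering, and with all 24 arrays in 1 fit. Zinc sulfate replicate 3 had a Gapdh ratio of 5.57, and the other 3 zinc sulfate rats 1.42 to 1.52.

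Receptors and channels through which vessels are told to contract or relax were measured for 20 of 24 listed genes. In PM-HD, 2 were called higher and 1 lower, where 3.67% of all probe sets were called. Adra1a, the α1A-adrenergic receptor, had a signal of 59.3 ± 38.8 in PM-HD and 14.1 ± 6.73 in saline (log2 fold change 1.21, standard error 0.44). Agtr1a, the angiotensin II receptor, had 139.9 ± 37.3 and 67.5 ± 35.0 (1.01, standard error 0.38). Calcrl, the receptor subunit for the vessel-widening peptides CGRP and adrenomedullin, had 108 ± 16.5 and 197 ± 59.5 (−0.77, standard error 0.27). In zinc sulfate 3 were called higher and 0 lower, at 4.46% of all probe sets: Adra1a (1.10), Agtr1a (0.85), and P2rx1, the ATP-gated channel of vessels (0.77). In PM-LD, 2 were called lower at 4.11% of all probe sets, Adra1b (−0.52) and Adra2b (−0.996). In MSH, PM-L, and the comparison of zinc sulfate with MSH 0 were called, at 3.57%, 4.25%, and 6.66% of all probe sets. Adra1a and Adra2b were near or below 16 in 1 group of their comparison, and no adjusted limma p of these genes was under 0.05.

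Regulators of the contractile program were measured for 29 of 36 listed genes, and up to 3 were called in a comparison, where 3.57% to 6.66% of all probe sets were. Hes1, a target of Notch signaling, had signals of 378 ± 48.7 (saline), 594 ± 36 (MSH), 505 ± 88.5 (PM-HD), and 371 ± 39.3 (zinc sulfate). It was called higher in MSH (0.62) and PM-HD (0.39) than in saline and lower in zinc sulfate than in MSH (−0.57). Klf4, a factor that opposes myocardin in smooth muscle, had 1941 ± 42.9 in saline, 1915 ± 409 in MSH, and 1050.2 ± 443 in zinc sulfate, and was called lower in zinc sulfate against both (−0.92 and −0.91). Ccn2, a matrix protein gene that answers to TGF-β and to stretch, was lower in zinc sulfate than in MSH (−0.67), and Pdgfrb, the receptor for platelet-derived growth factor on mural cells, was higher in PM-L (0.46). In PM-LD 0 were called, and the adjusted limma p of all these calls was 0.483 or above.

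Markers of other cells in the wall or around it were correlated with Acta2, Tagln, and Myh11 to differing degrees over the arrays, and the medians over their single genes were near or below 0 once the Gapdh ratio was removed. The mean log2 value of 11 endothelial markers had an r of 0.848 with Myh11, 0.574 with Acta2, and 0.505 with Tagln (adjusted permutation p = 0.0002, 0.0207, and 0.0460), and of 0.082 with Cnn1. For 9 pericyte markers the values were 0.696, 0.432, 0.406, and −0.071, and for 18 fibroblast and matrix markers 0.690, 0.536, 0.395, and 0.065. The mean of 2 red blood cell transcripts had an r of 0.693 with Myh11 and that of 5 adipocyte markers 0.521. The single adipocyte markers differed, with a median r of −0.11 with Myh11 and 2 of 5 above 0 (−0.52 to 0.80). With group means and the log2 Gapdh ratio removed, the median r of the single endothelial markers was −0.055 with Myh11, −0.041 with Acta2, and 0.040 with Tagln, and with Myh11 it was −0.22 for pericyte and −0.14 for fibroblast and matrix markers. Endothelial means ranged from 10.36 at the median zinc sulfate rat to 11.08 at the median PM-HD rat, fibroblast means from 9.88 in zinc sulfate to 10.42 in PM-L, and pericyte means from 9.16 in PM-LD to 9.59 in PM-L. Against saline, 0 of 11 endothelial markers were called in any comparison, where 3.57% to 4.46% of all probe sets were. Pericyte calls were Pdgfrb and Kcnj8, a potassium channel gene of pericytes (0.45), both higher in PM-L, where 4.25% of all probe sets were called.

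The lower Acta2 in zinc sulfate than in MSH stood beside lower matrix genes. In that comparison 7 of 18 fibroblast and matrix markers were called lower and 0 higher, where 2.99% of all probe sets were called lower, with a median of −0.41 against −0.01 over all probe sets. Fbn1, the gene of fibrillin of elastic fibers, had a signal of 1221 ± 126 in MSH and 752 ± 304 in zinc sulfate (−0.72), and Thy1 (−0.65), Lum (−0.61), Col6a1 (−0.54), Bgn, Dcn, and Col3a1 were the others. The adjusted limma p of these 7 calls was 0.544 to 0.671. Fbn1 was also lower in zinc sulfate than in saline (−0.57), as was Fbln1 (−0.42), 1 of 12 elastic artery genes. Of all probe sets, 4.46% were called between zinc sulfate and saline. The median Gapdh ratio was 1.50 in zinc sulfate and 2.76 in MSH rats. Neither its part in these differences nor the share of these cells in the difference of Acta2 was tested.

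The 3 probe sets annotated to both Acta2 and Actc1 did not follow Acta2. Their signals ranged from 12987 to 42311, from 1922 to 37231, and from 1715 to 21861. Their r with the Acta2 probe set was −0.48, −0.55, and −0.48 (adjusted permutation p = 0.0175, 0.0157, and 0.0175 over 3 probe sets), and with the log2 Gapdh ratio −0.91, −0.97, and −0.94. They fell as the Gapdh ratio rose, and no level of Acta2 was read from them.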

How the data were processed

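RNA of 24 rat hearts was measured on Affymetrix rat expression arrays. The deposited values are linear signal intensities that the authors made with Microarray Suite 5.0, per the labels, after scaling each array to a common mean. The study itself tested robust multiarray averages, which did not enter here. After 57 of 15923 probe sets, the controls, were left out, log2(signal + 16) was quantile normalized over the 24 arrays. Limma 3.58.1 in R 4.3.3 was fitted with 1 mean per group, on 24 arrays for the F test and comparisons with PM-LD or PM-L and on the 16 of the other groups otherwise. Adjusted p is Benjamini-Hochberg over 15866 probe sets. Exact permutation tests took all 70 arrangements, two-sided, and correlations 100000 permutations in Python 3.11.15 (numpy 2.4.6). Signals are printed before quantile normalization. The number of arrays limits the precision. Gene names came from the platform annotation, where 12783 probe sets carried 1 symbol and 12748 of these matched GRCr8. The brightest probe set stood for a listed gene. The genes named are the 4 genes, up to 4 called genes of a list with the lowest p, and the 5 most alike. Bgn, Dcn, Col3a1, the genes named for their correlation, and those called without single arrays were chosen after their values were seen. The members and lists were chosen with earlier results of these data known. The functions were tested on simulated data. Further lists were of macrophages, fat, blood, skeletal muscle, heart muscle, atrium, and cardiac stress. Their calls were Itgam lower in MSH (−0.46) and PM-HD (−0.47), Cd3e lower in PM-LD (−1.08), and Nppa higher in PM-L (1.41). Of all probe sets, 3.57%, 3.67%, 4.11%, and 4.25% were called in these comparisons, respectively. Alternatives are given in the closing section.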

Additional observations from a re-analysis of the deposited data

Results flagged for a closer look

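Acta2 in zinc sulfate replicate 3 had a signal of 1350.6, apart from the other 3 rats of its group at 970.8 to 1014.7. Its gap to the nearest of them was 0.872 of the range of the group, above Dixon's 95% critical value for 4 samples. It was the only such rat among 24 groups tested, and chance flags about 1 in 20. The array had a Gapdh 3′/5′ ratio of 5.57, whose part in the signal was not tested.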

How the results depend on the processing

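Against saline, PM-HD had 1 of the 4 genes called with median centering (Acta2, −0.48) and with the Gapdh covariate (Acta2, −0.56), and 2 without the arrays of a Gapdh ratio above 3. PM-LD had 1 with only the 2 groups compared (Cnn1, −0.84), and PM-L 1 with median centering (Acta2, −0.44) and 1 without those arrays. In the same order, the share of all probe sets called was 3.71%, 4.97%, and 4.49% in PM-HD. It was 3.82% in PM-LD and 4.00% and 4.89% in PM-L. Zinc sulfate against MSH had 0 with a pseudocount of 1, median centering (Acta2, −0.36), adjusted p under 0.05, the Gapdh covariate (−0.41), and the atrial covariate (−0.54). The number of correlated pairs was 1 without the arrays of a Gapdh ratio above 3 and 0 on these arrays alone, where 9 arrays remain. Leaving out each array in turn gave 0 to 1 called genes in PM-HD, in PM-L, and in zinc sulfate against MSH, 3 to 4 pairs, and 0 in MSH, PM-LD, and zinc sulfate against saline and in the F test. The cause of these shifts was not tested. Of 496 values for the 4 genes under alternatives, 473 stayed on their side of the thresholds, 11 became calls, 12 were lost, and 0 calls changed sign. Those of Tagln and Myh11 all stayed uncalled. With the replicate number as a block, 0 of the 4 genes were called in zinc sulfate against MSH (Acta2, −0.53), and no other count of the 4 genes or of their pairs moved. Samples with the same number had deviations with an r of −0.20 to 0.20 over 24 pairs, of which 6 exceeded 0.1. Exposed groups were not paired with each other, except zinc sulfate with MSH. A factor shared by rats of the same number was therefore not tested among them. Signals under 16, from 4.70% to 10.6% of an array and 3 of Cnn1, are the least certain.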
